A study of Mus musculus with 6 samples.

Results

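The inhibitors of cyclin-dependent kinases (CDKs) and the retinoblastoma pocket proteins were followed in primary mouse myoblasts, the muscle precursor cells that leave the cell cycle before they fuse into myotubes. The set holds 10 genes: the inhibitors Cdkn1a, Cdkn1b, Cdkn1c, Cdkn2a, Cdkn2b, Cdkn2c and Cdkn2d, and the pocket proteins Rb1, Rbl1 and Rbl2. Every probe set whose platform annotation gives exactly 1 gene symbol from this list was taken, which gave 17 of 45101 probe sets on Affymetrix Mouse Genome arrays. Of these, 15 had a mean signal high enough to be tested, and each of the 10 genes kept at least 1.

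In 3 samples the myoblasts carried an shRNA against the long non-coding RNA LncMyoD, cloned in a lentiviral vector of the Tet-pLKO-puro type, and 3 samples were control myoblasts. All 6 samples are labelled 21 days old, are called biological replicates, and have no genotype or strain in the labels. No probe set is annotated under the name LncMyoD, so its level was not analysed here and the labels could not be checked against it. The vector is made for tetracycline-inducible expression, but the labels state no inducer and no treatment of the controls. They also do not say whether the cells were in growth medium or in the low-serum differentiation medium, nor whether replicates were separate animals or cultures. The p-values therefore reflect only how these arrays vary, and that variation may be technical.

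CDK inhibitors hold cells in the G1 phase. The INK4 family (Cdkn2 genes) binds CDK4 and CDK6 and keeps them from D-type cyclins, while the Cip/Kip family (Cdkn1 genes) binds cyclin-CDK complexes more broadly. Active G1 kinases phosphorylate the pocket proteins, which otherwise hold E2F transcription factors and silence genes of DNA replication. In differentiating muscle, Cdkn1a is known to rise with MyoD activity, and Rb1 is needed for a lasting exit from the cell cycle.

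By the brightest probe set of each gene, the shRNA samples had more of the pocket protein transcripts Rbl1 and Rbl2. They had less of the INK4 inhibitors Cdkn2b and Cdkn2d and of the Cip/Kip inhibitor Cdkn1c. The Cdkn1c probe set was dim, and its call was lost when certain single arrays were left out. On their dimmer probe sets Cdkn1b was higher (0.43) and Rb1 lower (-0.77), while their brightest did not pass. Rbl1 was 2.09-fold higher and Cdkn2b 1.82-fold lower, the largest differences among the brightest probe sets of the 10 genes. Cdkn1a, read by a probe set among the brightest on the arrays, averaged 14.18 in both groups. Of the 15 tested probe sets, 4 were higher, 4 were lower and 7 did not pass the threshold, which is a Benjamini-Hochberg adjusted p of 0.05 in limma's test over all 27022 probe sets tested. Among all of these probe sets 53.9% passed, 30.4% higher and 23.5% lower, so 8 of 15 is close to the background and the count by itself is no result about these genes. The balance of directions depends on the scaling: 8214 probe sets were higher and 6352 lower as deposited, against 6674 and 8166 with each array centred on the median of its tested probe sets. The arrays of the 2 groups did not overlap in 9 of the 15 probe sets, against 59.5% of all tested ones. The median difference was 0.090 over the 15 and 0.021 over all tested probe sets, and the median size of a difference was 0.39 and 0.21. All differences are shRNA minus control on the log2 scale.

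All 10 markers of muscle precursors and myotubes were bright enough to be tested. Myod1 averaged 13.82 ± 0.064 in shRNA samples and 13.80 ± 0.074 in controls (log2 signal, SD, n = 3 each), and Myog 14.00 ± 0.048 in shRNA samples and 14.13 ± 0.060 in controls. Of the 10, 3 rose and 3 fell: the precursor markers Pax7 (12.06 in shRNA samples, 11.40 in controls) and Myf5 (8.05 and 7.43) and the cadherin Cdh15 (12.72 and 12.32) were higher, and Myog and the sarcomere genes Actc1 (13.46 in shRNA samples, 13.76 in controls) and Ttn (13.37 and 13.70) were lower. Myod1, Des (13.26 in shRNA samples, 13.22 in controls), Itga7 (13.07 and 13.10) and Chrna1 (13.80 and 13.73) did not pass. Over all genes 58.5% passed, 35.7% higher and 22.8% lower, so the count by itself is no result about these markers. The part of these marker differences in the results was not tested. All 5 endothelial markers and the 4 adipocyte markers measured lay below 6.50, the level under which probe sets were left out as dim, as did 3 of 5 leukocyte markers. Of 6 fibroblast markers, Dcn, Lum and Thy1 were below that level, and Col1a1 and Col3a1 were lower and Pdgfra higher in the shRNA samples. The summed linear signal of the fibroblast markers was 1629 to 1808 in shRNA samples and 2121 to 2447 in controls. This sum mainly reflects Col3a1, the brightest of them (10.34 in shRNA samples, 10.85 in controls). Pdgfra went the other way (7.51 in shRNA samples, 6.63 in controls). The part of the fibroblast markers in the results was not tested. Control probe sets at the 3' and 5' ends of a transcript gauge RNA integrity: for actin, the log2 ratio of 3' over 5' was 0.55 ± 0.017 in shRNA samples and 0.51 ± 0.018 in controls (SD, n = 3 each), and for GAPDH 0.23 ± 0.038 and 0.14 ± 0.045, each with p = 0.1 in a two-sided exact permutation test, which with 20 assignments of arrays can give no smaller value. The part of this difference was not tested either. In bulk RNA, a change in the share of cells that make a transcript and a change per cell cannot be told apart.

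**Figure D1:**
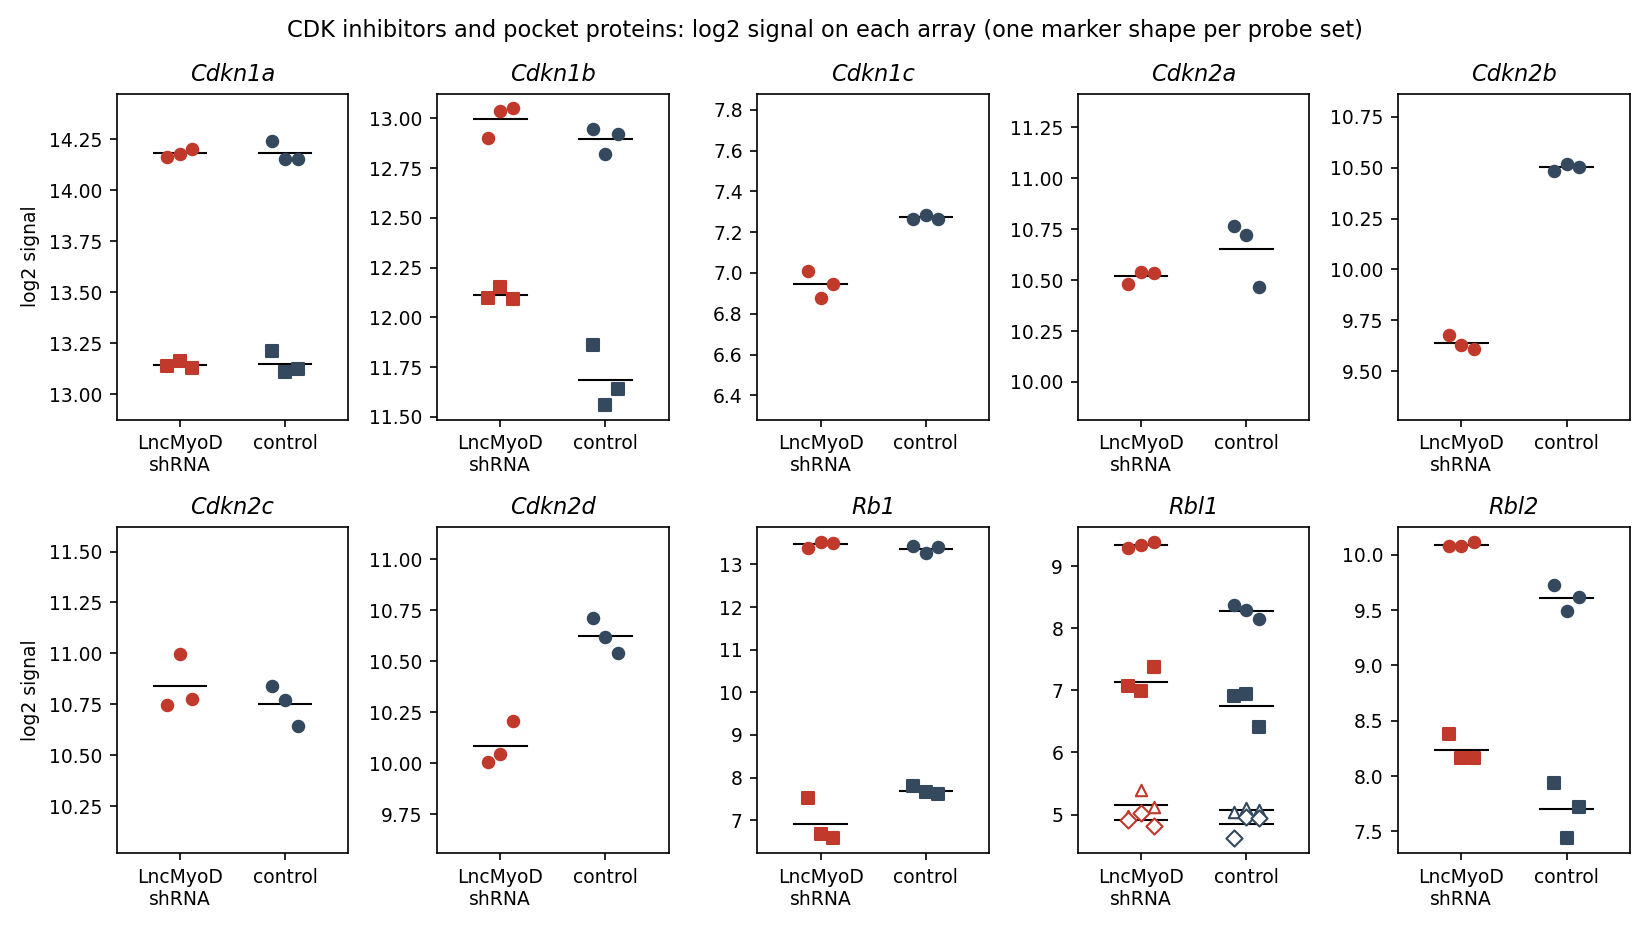
Log2 signal of every probe set of the 10 genes on each array, with LncMyoD shRNA samples left and control samples right of each panel; each point is 1 array, bars are group means, marker shapes tell probe sets of a gene apart, and open markers are the 2 Rbl1 probe sets left out as dim. Each panel has its own range of the axis. The 3 shRNA arrays lie apart from the 3 controls for Cdkn2b, Cdkn2d and Cdkn1c and for the brightest probe sets of Rbl1 and Rbl2. The groups also lie apart on the dimmer tested probe sets of Cdkn1b, Rb1, Rbl1 and Rbl2, and they overlap for both probe sets of Cdkn1a.

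Among the INK4 genes, each read by 1 probe set, Cdkn2b and Cdkn2d fell, and Cdkn2a and Cdkn2c did not pass the threshold. Cdkn2b encodes p15, an inhibitor of CDK4 and CDK6 best known as a target of TGF-beta signalling. The log2 signal of its probe set was 9.68, 9.63 and 9.61 in the shRNA samples, against 10.48, 10.52 and 10.50 in the controls. The groups stood apart by far more than the arrays of either group differed. The difference was -0.86 (SE 0.053, 95% confidence interval -0.98 to -0.75, limma adjusted p = 3.90e-08).

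Cdkn2d encodes an INK4 inhibitor that in other tissues is linked to the lasting arrest of differentiated cells. Its probe set had log2 signals of 10.01, 10.05 and 10.21 in shRNA samples, against 10.71, 10.62 and 10.54 in controls. Here too the highest shRNA array lay below the lowest control. The difference of -0.54 (SE 0.066, interval -0.68 to -0.39, limma adjusted p = 1.73e-05) was a 1.45-fold decrease.

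Cdkn2a encodes an INK4 protein and, from another first exon and reading frame, the Arf protein, which acts through Mdm2. Its probe set read 10.48, 10.54 and 10.53 in shRNA samples, and 10.77, 10.72 and 10.46 in controls. The third control lay below all 3 shRNA arrays while the other two controls lay above them. The difference was -0.13 (interval -0.29 to 0.02, limma adjusted p = 0.133), and it was -0.23 (adjusted p = 0.00405) without control 3. With arrays centred on their median over the tested probe sets it was -0.20 (limma adjusted p = 0.0190), and after quantile normalization -0.18 (adjusted p = 0.0271), so no call rests on it either way. Which of the 2 transcripts the probe set reads, or whether it reads both, is not given in the annotation used here.

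Cdkn2c, an INK4 inhibitor present in many proliferating and differentiating tissues, had 10.75, 10.998 and 10.78 in shRNA samples, against 10.84, 10.77 and 10.64 in controls. The groups overlapped, and the difference of 0.09 had an interval of -0.06 to 0.24 (limma adjusted p = 0.306).

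Cdkn2a and Cdkn2b are neighbours on mouse chromosome 4. Mtap, a methionine salvage enzyme and the next protein-coding gene with a tested probe set on the Cdkn2a side, averaged 11.80 ± 0.11 in shRNA samples and 11.85 ± 0.063 in controls (log2 signal, SD, n = 3 each). Its difference was -0.05 (SE 0.056, limma adjusted p = 0.467). On the Cdkn2b side the next gene with a tested probe set was Elavl2, an RNA-binding protein, which averaged 8.08 ± 0.093 in shRNA samples and 7.10 ± 0.082 in controls, a difference of 0.99 (SE 0.10, limma adjusted p = 3.42e-06). Of these 4 genes Cdkn2b was lower, Elavl2 was higher and Cdkn2a and Mtap did not pass; their differences were not tested against each other.

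The promoters of the INK4 genes that fell are printed here because the genes moved in the same direction, with the 300 bases from 250 before to 50 after the start that RefSeq gives on build GRCm38.p6. RefSeq promoters were found for 8 of the 10 genes, 11 in all, and were searched on both strands for the E2F motif, written as TTTCCCGC, TTTGGCGC, TTTGCCGC or TTTCGCGC, for the cell cycle homology region (CHR) TTTGAA of the DREAM complex, and for the E-box CAGCTG. The E2F letters were in 2.26%, the CHR letters in 17.9% and the E-box letters in 16.3% of all 32851 mouse promoters of this length. Capitals mark matches, and a match is a description of the letters.
Cdkn2b at chr4:89310983-89311282, minus strand: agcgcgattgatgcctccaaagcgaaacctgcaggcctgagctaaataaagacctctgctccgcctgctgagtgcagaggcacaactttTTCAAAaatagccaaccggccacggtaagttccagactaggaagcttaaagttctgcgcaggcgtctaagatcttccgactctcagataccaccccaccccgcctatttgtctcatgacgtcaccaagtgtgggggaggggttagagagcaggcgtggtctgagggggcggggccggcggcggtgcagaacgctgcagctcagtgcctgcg
Cdkn2d at chr9:21291160-21291459, minus strand: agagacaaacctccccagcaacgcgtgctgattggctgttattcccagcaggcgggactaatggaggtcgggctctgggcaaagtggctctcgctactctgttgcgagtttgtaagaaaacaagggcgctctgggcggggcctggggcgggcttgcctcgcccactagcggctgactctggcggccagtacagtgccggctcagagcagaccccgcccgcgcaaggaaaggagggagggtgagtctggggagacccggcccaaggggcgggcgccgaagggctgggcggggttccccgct
The Cdkn2b promoter holds 1 CHR match, on the opposite strand, and the Cdkn2d promoter holds none of the 3 motifs. Of the other INK4 promoters, 1 of the pair at Cdkn2a holds the E2F letters TTTCCCGC.

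Of the Cip/Kip genes, Cdkn1c fell, Cdkn1a did not pass the threshold, and the 2 probe sets of Cdkn1b gave different answers. Cdkn1a encodes p21, the inhibitor that MyoD is known to induce as myoblasts leave the cell cycle. Its brighter probe set had 14.16, 14.18 and 14.20 in shRNA samples, against 14.24, 14.15 and 14.15 in controls. Its dimmer one had 13.14, 13.16 and 13.13 in shRNA samples, against 13.21, 13.11 and 13.12 in controls. On both probe sets the first control was the highest array and the other two controls lay close to the shRNA arrays.

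The difference of Cdkn1a was 0.00031 (interval -0.07 to 0.07, limma adjusted p = 0.995) on the brighter probe set and -0.0039 (interval -0.08 to 0.08, limma adjusted p = 0.940) on the dimmer. At 14.18, the signal was above 99.9% of the probe sets. Differences were small in general at this level: among 886 genes with a mean of 13 or more the median size was 0.083 and 0% differed 2-fold, against 0.27 and 4.74% among 3648 genes between 9 and 11. Whether the brightest probe sets could show a larger change was not tested.

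Cdkn1b encodes p27, which restrains CDK2 and is removed by the Skp2 ubiquitin ligase. On its brighter probe set it had 12.90, 13.04 and 13.05 in shRNA samples and 12.95, 12.82 and 12.92 in controls, and the groups overlapped. The difference was 0.10 (interval -0.0038 to 0.20, limma adjusted p = 0.0968). On its dimmer probe set it had 12.10, 12.15 and 12.09 in shRNA samples and 11.86, 11.56 and 11.64 in controls, and each shRNA array lay above each control. There the difference was 0.43 (SE 0.063, interval 0.29 to 0.56, limma adjusted p = 9.14e-05).

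The signal of the brighter minus the dimmer Cdkn1b probe set within an array was 0.88 ± 0.077 in shRNA samples and 1.21 ± 0.11 in controls (log2, SD, n = 3 each). The exact permutation p of this difference of -0.33 was 0.1, the smallest possible, and 0.167 after Benjamini-Hochberg adjustment over the 5 such pairs of probe sets. When shRNA array 1 was left out the brighter probe set passed (0.15, limma adjusted p = 0.0149), as it did after quantile normalization (0.11, limma adjusted p = 0.0135), and with both probe sets averaged the gene was 0.26 higher (limma adjusted p = 0.00119).

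Cdkn1c encodes p57, an imprinted inhibitor with a part in muscle differentiation alongside p21. Its probe set was dim, at 7.01, 6.88 and 6.95 in shRNA samples, against 7.27, 7.28 and 7.27 in controls. The groups did not overlap, and the controls lay closely together. The difference was -0.33 (SE 0.10, interval -0.55 to -0.10, limma adjusted p = 0.0173), which missed the threshold when control 2 (-0.32, limma adjusted p = 0.0529) or shRNA array 2 (-0.29, 0.0639) was left out.

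Of the 6 tested probe sets of the pocket proteins, 3 were higher, 1 was lower and 2 did not pass. That is 66.7% past the threshold, against 53.9% of all tested probe sets, 30.4% higher and 23.5% lower. With so few probe sets the count by itself is no result about this family. Rbl1 encodes p107, the pocket protein that is most abundant in cycling cells and whose gene is a known E2F target. Its brightest probe set had 9.30, 9.34 and 9.39 in shRNA samples, against 8.38, 8.30 and 8.16 in controls. The lowest shRNA array stood well above the highest control. The difference was 1.07 (SE 0.081, interval 0.89 to 1.24, limma adjusted p = 2.33e-07), and 97.3% of all tested probe sets had a smaller one in size.

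A second Rbl1 probe set was dim, with 7.07, 6.99 and 7.37 in shRNA samples and 6.90, 6.95 and 6.41 in controls. The groups stood just apart, and the arrays of each were widely spread. Its difference of 0.39 (interval 0.05 to 0.73) had a limma adjusted p of 0.0508, and it passed with spike-in scaling (0.38, limma adjusted p = 0.0359) and without control 1 (0.47, 0.0352), control 2 (0.49, 0.0336) or shRNA array 2 (0.47, 0.0445). Within an array the brighter minus this dimmer signal was 2.20 ± 0.17 in shRNA samples and 1.53 ± 0.20 in controls (log2, SD, n = 3 each; exact permutation p = 0.1, adjusted over the 5 pairs 0.167). The other two Rbl1 probe sets averaged 5.16 ± 0.21 and 4.91 ± 0.10 in shRNA samples, against 5.07 ± 0.032 and 4.84 ± 0.19 in controls. They were too dim to be tested, and without the filter they gave limma adjusted p = 0.659 and 0.721.

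Rbl2 encodes p130, the pocket protein that assembles the DREAM complex in resting cells. Both of its probe sets rose. The brighter had 10.08, 10.08 and 10.12 in shRNA samples, against 9.72, 9.49 and 9.62 in controls, and the dimmer had 8.38, 8.17 and 8.17 in shRNA samples, against 7.94, 7.44 and 7.72 in controls. The groups overlapped on neither, and control 1 was the highest control on both. The differences were 0.48 (SE 0.067, interval 0.34 to 0.63, limma adjusted p = 5.17e-05) and 0.54 (SE 0.12, interval 0.27 to 0.81, limma adjusted p = 0.00275). Within an array the brighter minus the dimmer signal was 1.85 ± 0.14 in shRNA samples and 1.91 ± 0.14 in controls (exact permutation p = 0.7, adjusted over the 5 pairs 0.875).

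Rb1, the retinoblastoma protein, is the pocket protein whose loss lets muscle cells re-enter the cycle. Its bright probe set had 13.37, 13.53 and 13.50 in shRNA samples, against 13.42, 13.27 and 13.41 in controls, and the groups overlapped. The difference was 0.10 (interval -0.0036 to 0.21, limma adjusted p = 0.0957). It passed after quantile normalization (0.12, limma adjusted p = 0.0135) and when shRNA array 1 was left out (0.15, 0.0166).

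The second Rb1 probe set was dim, at 7.51, 6.68 and 6.57 in shRNA samples, against 7.80, 7.65 and 7.62 in controls. The first shRNA array lay close to the controls and the other two well below. Its difference was -0.77 (SE 0.20, interval -1.19 to -0.35, limma adjusted p = 0.00492), opposite in sign to that of the bright probe set. The bright minus the dim signal was 6.55 ± 0.59 in shRNA samples and 5.68 ± 0.099 in controls (log2, SD, n = 3 each; exact permutation p = 0.1, adjusted over the 5 pairs 0.167). With both averaged the gene was at -0.33 (limma adjusted p = 0.00870), so the direction given for Rb1 depends on the probe set.

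**Figure D2:**
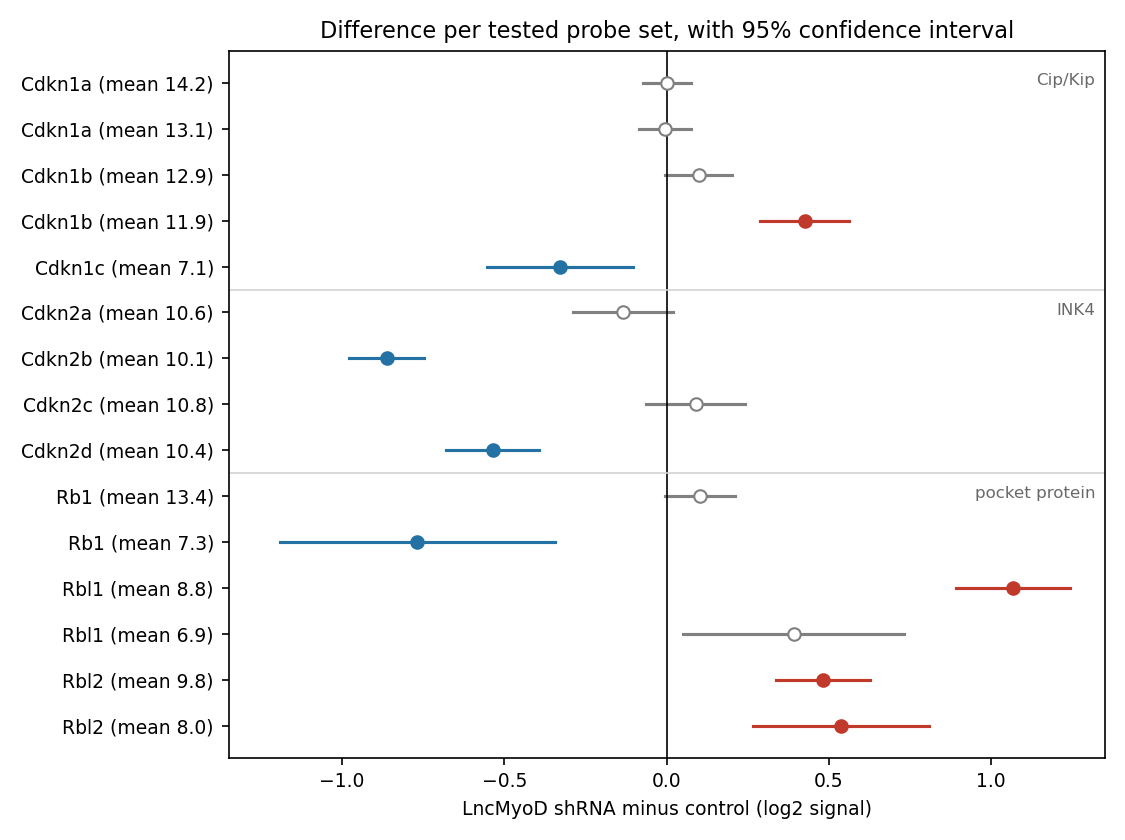
Difference between LncMyoD shRNA and control samples (log2 signal, shRNA minus control) for the 15 tested probe sets, grouped as Cip/Kip, INK4 and pocket protein, with limma's 95% confidence interval; filled points passed the threshold and the mean log2 signal of each probe set stands in its label. Both Rbl2 probe sets lie right of 0, at 0.48 and 0.54, while the Rb1 probe sets lie on opposite sides, at 0.10 and -0.77.

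The promoters of Rbl1 and Rbl2 are shown because both transcripts rose. They come from RefSeq, build GRCm38.p6, with the same motifs in capitals.
Rbl1 at chr2:157204485-157204784, minus strand: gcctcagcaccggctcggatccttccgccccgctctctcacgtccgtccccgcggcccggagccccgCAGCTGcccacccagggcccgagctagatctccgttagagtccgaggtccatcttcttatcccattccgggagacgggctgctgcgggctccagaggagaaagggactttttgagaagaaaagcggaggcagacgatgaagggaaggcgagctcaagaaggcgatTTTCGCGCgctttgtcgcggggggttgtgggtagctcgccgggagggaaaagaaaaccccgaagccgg
Rbl2 at chr8:91069807-91070106, plus strand: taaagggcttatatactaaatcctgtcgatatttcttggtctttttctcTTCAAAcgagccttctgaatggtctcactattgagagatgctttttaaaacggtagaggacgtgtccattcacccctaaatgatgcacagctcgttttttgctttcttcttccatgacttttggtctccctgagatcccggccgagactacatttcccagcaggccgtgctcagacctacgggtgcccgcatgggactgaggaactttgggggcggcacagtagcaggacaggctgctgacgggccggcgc
The Rbl1 promoter holds the E2F letters TTTCGCGC, which begin 18 bases before the start, and 1 E-box further upstream. The Rbl2 promoter holds 1 CHR match on the opposite strand and no E2F match. Over the 11 promoters of the set, each motif was found in 2, the second with an E-box being that of Cdkn1a, after the start.

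By the probe set with the highest mean, 2 of the 10 genes rose, 3 fell and the other 5 stayed short of the threshold; their median difference was 0.045. Over all 12408 genes represented in this way 58.5% passed, 35.7% higher and 22.8% lower, and the median was 0.046. The median was -0.33 over the 4 INK4 genes, 0.00031 over the 3 Cip/Kip genes and 0.48 over the 3 pocket protein genes. The Cip/Kip median is simply the Cdkn1a value and the pocket protein median the Rbl2 value. Single genes ranged from -0.86 to 0.09 in INK4, from -0.33 to 0.10 in Cip/Kip and from 0.10 to 1.07 in pocket proteins. The families were not tested against one another.

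**Figure D3:**
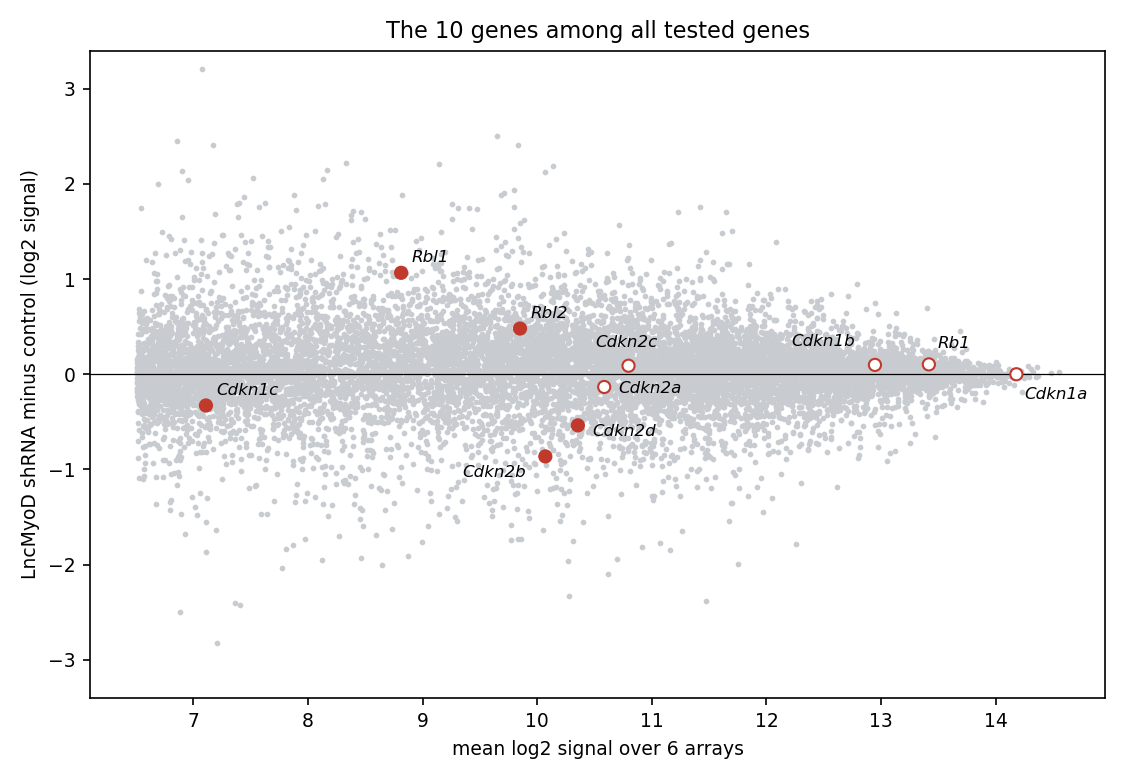
Difference between LncMyoD shRNA and control samples (vertical axis, log2 signal, shRNA minus control) against the mean log2 signal over the 6 arrays (horizontal axis) for all 12408 tested genes in grey and the 10 genes in red, filled where they passed the threshold. Rbl1, at 1.07, is the highest of the 10 and Cdkn2b, at -0.86, the lowest, and Cdkn1a, Rb1 and Cdkn1b lie at the bright end where the grey points are narrowest.

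The kinases and cyclins that the inhibitors act on were higher in the shRNA samples in 8 of 9 cases, none was lower, and Ccna2 did not pass (0.27, limma adjusted p = 0.0639). That is 88.9% past the threshold, against 58.5% of all genes, 35.7% of them higher. The median difference of this list was 0.44, against 0.046 over all genes. This list, like those below, was chosen with earlier results of these data known. Such contrasts with all genes are therefore descriptions only. Cyclin D2 (Ccnd2) averaged 13.01 ± 0.034 in shRNA samples and 12.37 ± 0.038 in controls (log2 signal, SD, n = 3 each), a difference of 0.64 (limma adjusted p = 2.26e-08) with 7 of 7 probe sets higher. Cdk6, bound by INK4 proteins, averaged 9.65 ± 0.052 in shRNA samples and 8.87 ± 0.095 in controls, a difference of 0.78 (limma adjusted p = 1.37e-06). Cdk4 was higher by 0.30 (SE 0.045) and Cdk2 by 0.40 (SE 0.052), although a second Cdk2 probe set did not pass. Ccnd1 was higher by 0.87, with 3 of 3 probe sets higher. Ccnd3 was higher by 0.44, although a second Ccnd3 probe set did not pass.

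The E2F and DP factors were divided, with 3 of 9 tested higher, 3 lower and 3 short of the threshold, against 35.7% higher and 22.8% lower over all genes; the median was 0.11. The list also holds E2f6 and E2f8, repressors that do not bind pocket proteins. E2f2, an activator, averaged 10.63 ± 0.046 in shRNA samples and 9.49 ± 0.086 in controls (log2 signal, SD, n = 3 each), a difference of 1.13 (limma adjusted p = 1.19e-08). The activator E2f1 was 0.83 higher (SE 0.081) and E2f6 0.50 higher (SE 0.043), while E2f8 stood at -0.28 (limma adjusted p = 4.69e-05). E2f3 stood at -0.53 (SE 0.041) on its brightest probe set and was lower on both. E2f4, the usual partner of Rbl1 and Rbl2 in resting cells, averaged 9.09 ± 0.033 in shRNA samples and 9.54 ± 0.020 in controls, a difference of -0.45 (limma adjusted p = 5.75e-05).

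Of the other DREAM complex partners, by the brightest probe set, Lin37 alone rose among 6 tested, Lin9 alone fell and 4 did not pass. That left 33.3% past the threshold, against 58.5% of all genes, with a median of 0.045. Dyrk1a, short of the threshold on its brightest probe set, was lower on 2 of its 3 tested probe sets. Lin37, a core subunit, stood 0.56 higher (SE 0.053), and Lin9 stood at -0.19 (limma adjusted p = 0.0377). The Lin9 call ended without control 1 or 3 or shRNA array 2 or 3, without the filter on dim probe sets and with spike-in scaling, with limma adjusted p = 0.0519 to 0.114.

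E2F target genes, most of them DNA replication factors, were higher in 11 of 18 tested cases, lower in 2 and not past the threshold in 5, with a median of 0.24. The higher ones were 61.1% and the lower ones 11.1% of those tested, against 35.7% and 22.8% of all genes. The largest increases by p were in Prim1 (1.27, SE 0.057), Cdt1 (1.26, SE 0.070) and Mcm2 (0.99, SE 0.060). The lower ones were Rrm2 (-0.47, limma adjusted p = 1.36e-06), on 3 of 3 probe sets, and Cdc45 (-0.29, limma adjusted p = 0.00941), on 1 of 2. Rrm1, counted as higher on its brightest probe set (0.12), was lower on another. A further 9 genes of this list were not tested here, so the count covers only those bright enough and named.

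Genes for the turnover and location of CDK inhibitors were higher in 6 of 16 tested cases, lower in 4 and not past the threshold in 6, with a median of -0.0100. Of this list 62.5% passed and 37.5% were higher, close to the 58.5% and 35.7% of all genes. Skp2, which marks p27 and p57 for degradation, averaged 10.75 ± 0.031 in shRNA samples and 9.71 ± 0.12 in controls (log2 signal, SD, n = 3 each). Its difference was 1.04 (SE 0.064, limma adjusted p = 3.75e-08), and 5 of 5 tested probe sets were higher. Dtl, which recruits p21 and Cdt1 to a ubiquitin ligase on replicating DNA, averaged 8.54 ± 0.045 in shRNA samples and 9.54 ± 0.16 in controls. The Dtl difference was -0.995 (limma adjusted p = 7.02e-07), and only 1 of its 6 probe sets was bright enough to be tested. Pcna, the clamp on which Dtl acts and which p21 binds, was 0.46 higher (SE 0.040). These arrays measure RNA and not the amount of the inhibitor proteins.

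**Figure D4:**
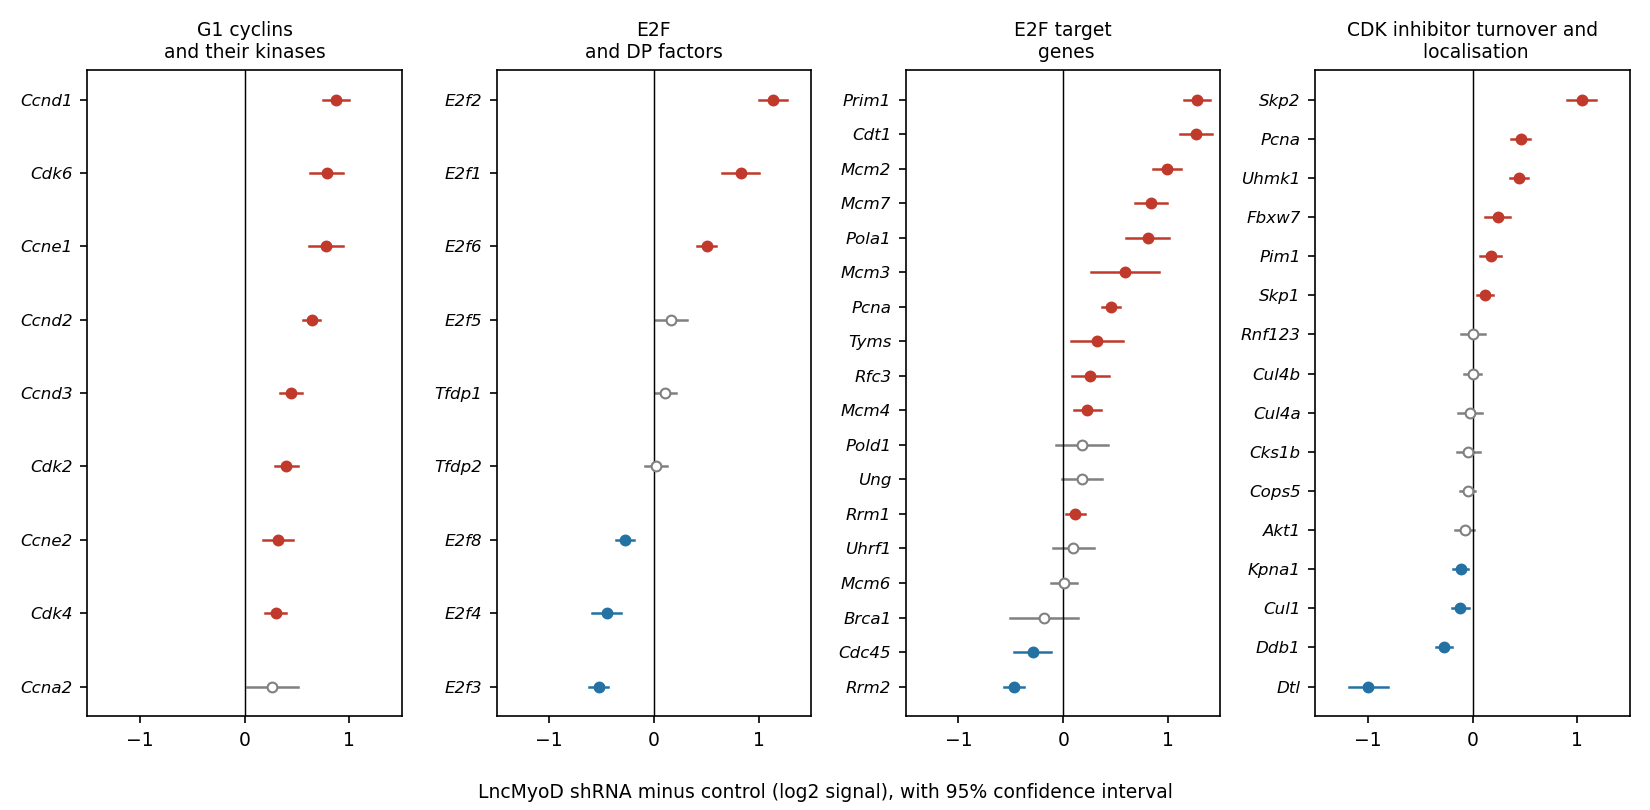
Difference between LncMyoD shRNA and control samples (log2 signal, shRNA minus control) with limma's 95% confidence interval for tested genes of 4 lists: G1 cyclins and their kinases, E2F and DP factors, E2F target genes, and genes for CDK inhibitor turnover. Red points were higher, blue points lower, and open grey points did not pass the threshold; of the 9 cyclins and kinases 8 are red, while E2F factors lie on both sides of 0.

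Regulators of the inhibitor genes were higher in 8 of 22 tested cases, lower in 3 and not past the threshold in 11, with a median of 0.11. The share higher, 36.4%, was close to that of all genes, 35.7%, and 50% passed, against 58.5%. The Polycomb proteins known to silence the Cdkn2a and Cdkn2b locus were among them. Ezh2, the histone methyltransferase, averaged 11.24 ± 0.047 in shRNA samples and 10.54 ± 0.13 in controls (log2 signal, SD, n = 3 each), a difference of 0.70 (limma adjusted p = 8.19e-07). Its partner Suz12 was lower on all 6 of its probe sets (-0.53 on the brightest, limma adjusted p = 1.43e-06), while Eed, which joins both in one complex, was 0.52 higher (limma adjusted p = 1.54e-06). Bmi1 differed by -0.0071 (SE 0.038, limma adjusted p = 0.893). The Polycomb genes Cbx7 (-0.25, limma adjusted p = 0.0569) and Rnf2 (0.10, limma adjusted p = 0.0684) did not pass the threshold either. Twist1 was 1.11 higher (SE 0.096), Mdm2 0.24 higher (SE 0.034), and Myod1 differed by 0.023 (SE 0.044, limma adjusted p = 0.688).

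Of chromatin proteins that bind Rb1, 2 of 10 tested were higher, 2 lower and 6 not past the threshold, with a median of -0.018; 40% passed, against 58.5% of all genes. The DNA methyltransferase Dnmt1 (0.80, SE 0.089) and the remodeller Smarca2 (0.40, SE 0.074) were higher. The demethylase Kdm5a was lower (-0.45, SE 0.044), but stood at -0.14 (limma adjusted p = 0.0918) over the mean of its probe sets. Arid1a was lower on 2 of 2 probe sets (-0.24 on the brightest, limma adjusted p = 0.00057).

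The genes most like Rbl1 and Cdkn2b over the 6 arrays were found by the Euclidean distance between mean-centred log2 signals among 12407 other genes. For Rbl1 they were Rgs10 (distance 0.042), Zfp874b (0.084) and Xrcc1 (0.093), which were 1.07, 1.06 and 1.06 higher in shRNA samples. For Cdkn2b they were Tor3a (distance 0.025), Alpk2 (0.059) and Art1 (0.065), with differences of -0.87, -0.89 and -0.87. With 6 arrays in 2 groups this measure mainly reflects the size of the group difference.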

How the data were processed

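RNA from 3 LncMyoD shRNA and 3 control samples was read on Affymetrix mouse genome arrays. The authors deposited a log2 signal for each probe set on each array. That it is log2 follows from the range, 4.48 to 14.6, and all arrays share a median of 7.23 over all probe sets, though not over those tested (9.38 to 9.48). PLIER and MAS5 stand in the submitters' processing notes, with no role or version; how background was corrected is not given there. Precision is limited by the 3 arrays per group.

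Gene names are those of GEO's platform annotation. The 64 control probe sets and the 40% of the others with the lowest mean (18015) were left out. Differences were tested with limma 3.58.1 in R 4.3.3 (lmFit, eBayes with a mean-variance trend) on 27022 probe sets, with Benjamini-Hochberg adjustment over all of them. Other genes were represented by their probe set with the highest mean, avoiding those ending in _x_at. Exact permutation tests, two-sided, used scipy 1.17.1. The limma calculation was tested on simulated data.

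The members and the gene lists were chosen with earlier results of these data known. Named genes are all 10 members, in each list up to 3 called genes by smallest p, and a fixed set of cyclins, kinases and regulators; 1 of the lists and some genes under this rule are not reported here. Ccna2, Mtap, Elavl2, Eed, Cbx7, Rnf2, Arid1a, E2f8, Rrm1, Rrm2, Cdc45, Dyrk1a and the marker genes were added after their values were seen. So were the grouping of genes by signal level and the genes behind small counts. A planned comparison of protein sequences was not run. Alternatives were other filters (none, or 20%), scalings (centring on the median over tested probe sets, quantile normalization, spike-in controls), no variance trend, the replicate number as a block, averaged probe sets, probe sets ending in _x_at or _s_at left out, and leaving out each array.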

Additional observations from a re-analysis of the deposited data

How the results depend on the processing

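For the 15 tested probe sets, 200 of 215 values under an alternative kept their side of the threshold and, where called, their sign, and the exceptions are given beside Cdkn1b, Cdkn1c, Cdkn2a, Rb1 and Rbl1. The sign turned in a called value for the bright Rb1 probe set, at -0.33 (limma adjusted p = 0.00870) when the gene's probe sets were averaged, since there the dim probe set enters the mean. Calls of Cdkn2b (-0.93 to -0.85), Cdkn2d (-0.60 to -0.49), the brightest Rbl1 probe set (0.73 to 1.12) and both Rbl2 probe sets (0.41 to 0.54 and 0.41 to 0.66) held in each alternative run. Leaving out 1 array gave 4 to 6 higher and 3 to 5 lower probe sets among the 15, against 4 and 4. Quantile normalization gave 6 and 5. Centring each array on the median of its tested probe sets gave 6674 higher and 8166 lower probe sets over the whole table, against 8214 and 6352, which moved the balance of directions.

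The replicate numbers were not treated as pairs: same-numbered arrays had deviations from their group means that correlated at -0.13, -0.062 and 0.031 for replicates 1, 2 and 3, and not every array correlated best with its own number. With the replicate block, 4 of the 15 probe sets were higher and 4 lower, and 7726 and 5920 of all. No scanner file or detection call was used, and whether Cdkn1c, the dim Rb1 probe set or the dim Rbl1 probe sets lay above background was not tested.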
